A study of Rattus norvegicus with 16 samples.

Results

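The semaphorins, plexins and neuropilins are a family of guidance ligands and receptors, and their messenger RNA was followed here in purified Schwann cells and in whole sciatic nerve of the rat, before and after a crush injury. Members were taken by gene symbol, as every gene written Sema3 to Sema7 with a letter, Plxn with a letter and number, or Nrp1 or Nrp2. This gave 31 of the 31038 genes in the tables, namely 20 semaphorins, 9 plexins and 2 neuropilins. In brief, Sema3e, Sema4f and Plxnd1 rose in Schwann cells after crush, and Sema5a, Sema6d, Sema4g, Plxnb3 and both neuropilins fell. In whole nerve Nrp1 rose at days 3 and 5 and Nrp2 on all 3 days. Of these calls, Nrp1 at day 5 and Nrp2 at days 3 and 5 were lost without single libraries.

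The study covers 8 groups with 2 RNA libraries each, 16 in all. The left sciatic nerve was crushed in the thigh at postnatal day 18, and the segment distal to the crush was collected 3, 5 or 7 days later. Uncrushed Schwann cells and uncrushed whole nerve came from the matching segment of uninjured nerves, and no sham operation was done. The crushed rats had isoflurane anaesthesia, an incision and the analgesic carprofen, and they were 3 to 7 days older at collection than at the crush. The labels give postnatal day 18 for every sample, uncrushed ones included, so that surgery, analgesic, age and the crush itself cannot be told apart. No strain is given in the sources used here. Schwann cells were purified by immunopanning, in which dissociated nerve cells pass over dishes coated with antibodies against CD45 and Thy1, which take out leukocytes and fibroblasts, and then bind to a dish with the O4 antibody. Whole nerve was not dissociated, so that it holds Schwann cells, fibroblasts, macrophages, vessel and perineurial cells together. Each sample pooled at least 10 nerves. Since only the purified cells were dissociated, differences between the preparations that come from dissociation and those that come from cell type cannot be told apart in these 16 libraries. Nerve dissociated without panning was not analysed here. Nothing in the labels says that libraries of a group came from separate animals or days, so that the p-values measure the spread between these libraries only.

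Semaphorins are recognised by plexins, which act on the cytoskeleton of the receiving cell through small GTPases. Class 3 semaphorins are secreted, and most of them need a neuropilin as the binding subunit beside a class A plexin. Classes 4, 5 and 6 span the membrane and Sema7a is held there by a lipid anchor, so that they act on neighbouring cells. The family is known for steering axons and vessels in development and for repelling or guiding axons and glia in the injured nerve, where Schwann cells lose their myelin program and become repair cells.

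The libraries held between 10555067 and 27562637 expected counts, of which 23711 to 69724 per library fell on the family. Levels are given as FPKM, fragments scaled to gene length and library size, as deposited. Changes are log2 fold changes from edgeR's quasi-likelihood test, given ± the standard error, and a gene is called where the p adjusted over all genes tested is below 0.05. Of 9 Schwann cell markers, the lineage factor Sox10 lay between 59.1 and 95.5 FPKM over the 8 libraries of purified cells, with no call at day 3. Other markers moved with injury, as at day 3 Egr2, a regulator of myelination (270.0 and 286 FPKM before crush, 32.2 and 30.7 after), Mbp and Cdh19 were called lower, and Ngfr, S100b and Erbb3 higher. The 9 summed to 9412 and 9598 FPKM before crush and to 4218 and 4480 at day 3. The uncrushed sum was below that of uncrushed whole nerve, 18136 and 21634. Sox10, Egr2, Erbb3, Cdh19 and Ngfr were higher in the purified cells, and Mbp and S100b in whole nerve. The marker sum of each other cell type was below that in whole nerve. The 8 macrophage markers summed to between 3.30 and 15.5 FPKM in Schwann cells and to between 151 and 675 in whole nerve. The 7 endothelial markers summed to 4.74 to 6.09 FPKM in uncrushed Schwann cells and 1.27 to 4.55 after crush, against 97.3 to 138 in whole nerve. The 5 markers of pericytes and smooth muscle summed to 34.9 and 47.8 FPKM in uncrushed Schwann cells and to between 7.55 and 17.2 after crush, against 241 to 361 in whole nerve. Within that list Pdgfrb, at 33.7 and 29.1 FPKM in the uncrushed cells, exceeded its own level in uncrushed nerve (8.58 and 10.5). The 4 perineurial markers summed to between 12.1 and 20.5 FPKM, against 120.3 to 241 in whole nerve. The 5 markers of T and B cells stayed at or below 1.55 FPKM in Schwann cells and 6.73 in whole nerve. The 6 fibroblast markers summed to 1338 and 1599 FPKM in uncrushed Schwann cells and to between 297 and 465 after crush. Most of the uncrushed sum was Col3a1 (1023 and 1015 FPKM) and Col1a1 (301 and 297), while the fibroblast proteoglycan genes Dcn and Lum stood at no more than 17.9 and 8.49 FPKM. Before crush 5 of the 6 were called lower in the purified cells than in whole nerve and 1 higher. The exception was Col1a2, at 249 and 12.7 FPKM in uncrushed Schwann cells and 0.02 and 0.0 in uncrushed nerve. Its values were uneven, reaching 47.9 and 293 FPKM in whole nerve at day 7. Where a member falls in Schwann cells, the part of these changes in fibroblast, pericyte and endothelial markers was not tested. In whole nerve the same 6 genes summed to between 6329 and 8174 FPKM.

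A full window around a RefSeq start site in the assembly GRCr8 was at hand for 23 of the 31 members. The other members have RefSeq records there too, but their windows were not searched. The 250 bases upstream of 4 of the 23 are shown: Sema3e and Plxnd1 because this ligand and its receptor rose together in Schwann cells, Sema4f because it rose most there among the membrane-bound ligands, and Sema6d because it was the most abundant ligand that fell. Capitals mark the letters searched, on either strand: GGGCGG (the GC box), CCAAT (the CCAAT box), TGANTCA (the site of AP-1) and GGAATG (the site of TEAD factors).
Sema3e, chr4:21510375-21510624, minus strand: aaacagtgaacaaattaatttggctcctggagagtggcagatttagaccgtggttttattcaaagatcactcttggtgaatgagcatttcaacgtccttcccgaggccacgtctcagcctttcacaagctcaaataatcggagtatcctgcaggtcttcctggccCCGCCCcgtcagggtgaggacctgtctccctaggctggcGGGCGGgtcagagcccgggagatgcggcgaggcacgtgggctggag
Plxnd1, chr4:150715188-150715437, minus strand: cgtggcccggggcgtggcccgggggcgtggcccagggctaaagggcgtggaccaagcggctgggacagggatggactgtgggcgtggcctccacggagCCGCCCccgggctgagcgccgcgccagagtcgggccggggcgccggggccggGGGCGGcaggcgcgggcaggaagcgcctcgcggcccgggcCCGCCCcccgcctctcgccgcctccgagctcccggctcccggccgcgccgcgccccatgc
Sema4f, chr4:116995443-116995692, minus strand: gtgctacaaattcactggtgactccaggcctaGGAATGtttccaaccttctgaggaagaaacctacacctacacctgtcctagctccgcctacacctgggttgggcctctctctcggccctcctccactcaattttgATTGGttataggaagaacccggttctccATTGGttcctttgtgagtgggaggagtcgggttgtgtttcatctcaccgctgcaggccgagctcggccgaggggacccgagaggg
Sema6d, chr3:132337106-132337355, plus strand: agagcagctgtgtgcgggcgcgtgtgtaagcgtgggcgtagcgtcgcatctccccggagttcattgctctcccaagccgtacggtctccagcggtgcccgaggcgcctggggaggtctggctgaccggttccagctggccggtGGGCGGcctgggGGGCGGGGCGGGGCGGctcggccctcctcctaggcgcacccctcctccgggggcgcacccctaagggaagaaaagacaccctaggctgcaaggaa
A GC box was found in 13 of the 23 windows (56.5%), Sema3e, Plxnd1 and Sema6d among them, and in 30.5% of all 33469 windows of that length. The median GC content was 60.0% over the 23 windows and 51.2% over all windows. The CCAAT letters occurred in 6 of 23 (26.1%, against 34.0% of all windows), and Sema4f held them at 2 places. Only Sema4f held the TEAD letters, which 12.1% of all windows do. No window of a member held the AP-1 letters, which are found in 6.34% of all windows. These are matches of letters and not measured binding.

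In uncrushed Schwann cells the family was led by Sema3b, Sema6d, Nrp2, Sema5a and Sema3c, in that order of mean FPKM. In uncrushed whole nerve the order was Sema5a, Sema3b, Sema3c, Sema6d and Nrp2. The summed FPKM of the 20 semaphorins in Schwann cells was 489 and 493 before crush, 422 and 394 on day 3, 399 and 413 on day 5 and 415 and 414 on day 7. Behind these sums the composition changed. Class 6 went from 168 and 176 FPKM to 27.4 and 21.8 at day 3, while class 3 went from 215 and 201 to 321 and 295. Sema3b alone made up 34.2% of the semaphorin sum before crush and 54.2% at day 3. The plexins, summed, stood at 70.7 and 62.2 FPKM before crush and at 82.6 and 86.3 at day 7. The neuropilins went from 133 and 116 FPKM to 40.1 and 39.9 at day 7 in Schwann cells, and in whole nerve they went from 34.5 and 33.3 to 62.6 and 55.9.

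Of the 31 members, 28 could be tested within Schwann cells, since Sema3d, Sema4a and Sema5b did not pass the filter on low counts. At day 3, 9 members were called higher than in uncrushed cells and 14 lower, beside 26.9% and 25.7% of all genes tested. At day 5 there were 9 higher and 11 lower, beside 29.0% and 25.6%. Day 7 gave 9 higher and 10 lower, beside 25.0% and 21.9% of all genes. The members called higher were a share close to or a little above that of all genes tested, and those called lower a larger share than that of all genes on each day. Over the 28 members the median size of the change at day 3 was 1.18 on the log2 scale, and over all genes tested it was 0.62. On all 3 days 8 members were higher (Sema3a, Sema3b, Sema3e, Sema4f, Plxna1, Plxna4, Plxnb2 and Plxnd1) and 10 were lower (Sema3f, Sema4g, Sema5a, Sema6a, Sema6c, Sema6d, Plxnb1, Plxnb3, Nrp1 and Nrp2), beside 18.6% and 16.3% of all genes tested. The 3 days were compared with the same 2 uncrushed libraries. Sema3a passed the filter on low counts only through the crushed groups and Sema3f only through the uncrushed group. Their direction was thus set by the filter, and they are among the members counted on each day. Another 6 members were called on some days (Sema3g, Sema4b, Sema4d, Sema6b, Plxna3 and Plxnc1), and Sema3c, Sema4c, Sema7a and Plxna2 on none. In these bulk samples, fewer cells of a kind and less RNA per cell cannot be told apart.

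**Figure D1:**
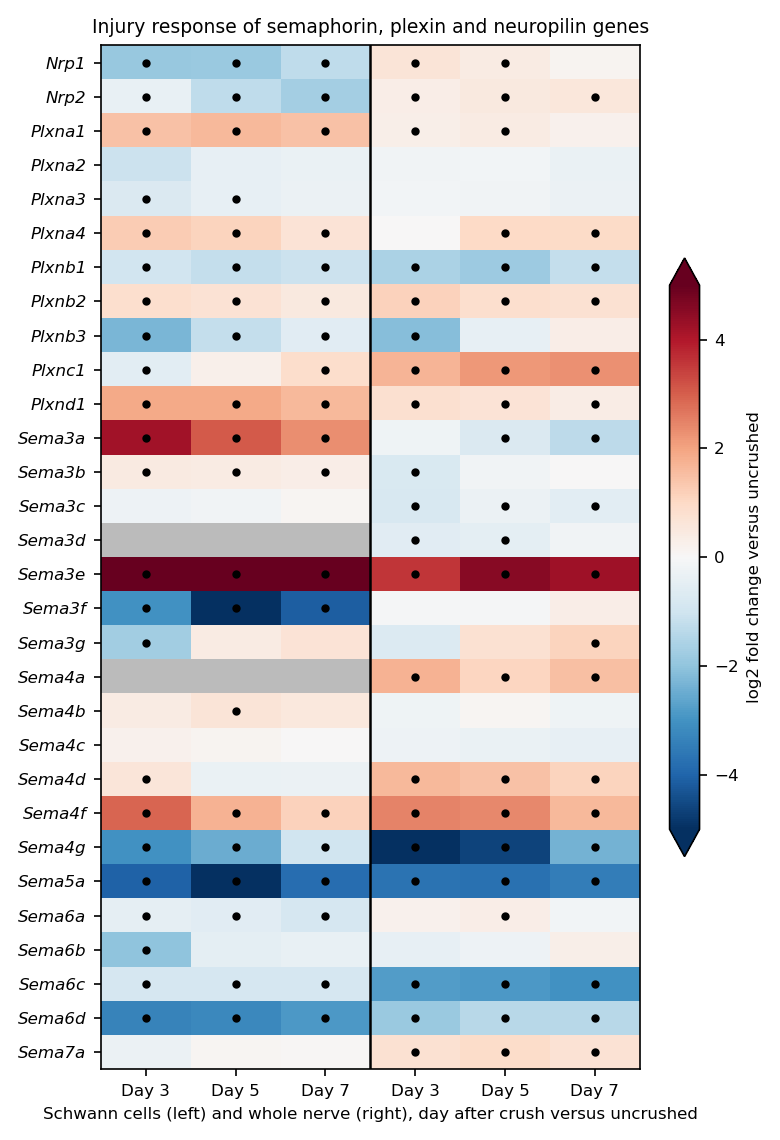
Log2 fold change against uncrushed (color, cut at 5 in both directions) for the 30 members tested in at least 1 preparation, with Schwann cells left and whole nerve right, at days 3, 5 and 7. Black points mark calls at an adjusted p below 0.05, and grey cells were not tested. Sema3e was the strongest riser and Sema5a fell in both preparations, while Nrp1 and Nrp2 were blue on the left and, where called, red on the right; Sema3f at day 5 in Schwann cells was at the count floor.

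Sema3e was the member that rose most. It encodes a secreted semaphorin that binds plexin D1 directly, without a neuropilin. In Schwann cells it stood at 1.14 and 0.91 FPKM before crush, 57.3 and 51.3 on day 3, 50.5 and 53.6 on day 5 and 53.7 and 68.8 on day 7. All 6 libraries after crush lay far above both uncrushed libraries, and the level changed little from day 3 to day 7. The log2 fold change was 5.96 ± 0.17 at day 3 (edgeR adjusted p = 4.6e-08), 5.82 ± 0.17 at day 5 and 6.05 ± 0.17 at day 7. Plxnd1, its receptor, stood at 5.41 and 5.05 FPKM before crush, 18.1 and 19.7 on day 3, 20.7 and 18.6 on day 5 and 15.3 and 17.6 on day 7. Its libraries after crush did not overlap those before. It rose by 1.90 ± 0.11 on the log2 scale at day 3 (edgeR adjusted p = 8.3e-07), 1.88 ± 0.11 at day 5 and 1.60 ± 0.11 at day 7. Ligand and receptor were thus both higher in the same purified population on all 3 days.

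Sema3a, the founding repellent of the class, which binds neuropilin 1, was scarce in Schwann cells, at 0.13 and 0.08 FPKM before crush, 2.0 and 1.76 on day 3, 0.43 and 0.86 on day 5 and 0.40 and 0.42 on day 7. Every library after crush lay above the uncrushed ones, with the highest level at day 3. It had 9 and 6 counts before crush and 170 and 256 at day 3. Within Schwann cells it passed the filter on low counts only through the crushed groups. Its direction against uncrushed was thus set by the filter, and these values are a description. The fitted log2 change of Sema3a was 4.19 ± 0.35 at day 3 and had come down to 2.32 ± 0.38 at day 7. From day 3 to day 7 it fell, with a log2 fold change of -1.87 ± 0.28 (edgeR adjusted p = 0.0014). Sema3b, which binds both neuropilins, was the most abundant member in all 4 Schwann cell groups, at 169 and 167 FPKM before crush, 229.9 and 213 on day 3, 221 and 237 on day 5 and 222 and 213 on day 7. The groups before and after crush did not overlap, but the change was small, 0.45 ± 0.09 at day 3 (edgeR adjusted p = 0.0023), 0.42 ± 0.09 at day 5 and 0.33 ± 0.09 at day 7. The day 7 value was no longer called without day 7 replicate 1 (0.31) or with uncrushed and day 7 libraries fitted alone (0.29).

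Sema3f, the neuropilin 2 ligand of the class, went the other way, at 1.47 and 1.22 FPKM before crush, 0.08 and 0.24 on day 3, 0.03 and 0.02 on day 5 and 0.09 and 0.08 on day 7. All libraries after crush were below those before it. The fitted log2 fold change of Sema3f was -3.01 ± 0.52 at day 3 and -4.12 ± 0.59 at day 7. Few reads lie behind these values, 71 and 52 counts before crush, 4 and 21 at day 3, and 5 and 3 at day 7. Within Schwann cells it passed the filter on low counts only through the uncrushed group. Its direction was thus set by the filter, and these values are a description. Without day 3 replicate 2, the library with 21 counts, the day 3 value was -4.09, and without replicate 1 it was -2.54. Replicate 2 also had the higher macrophage marker sum of that day, 15.5 against 3.30 FPKM, and the higher endothelial one, 4.55 against 1.27, whose part in the result was not tested. At day 5 it had 2 and 1 counts, below the floor of 3 counts per library, and was at least 27.2-fold lower than before crush. Sema3g, another neuropilin 2 ligand, was at 1.82 and 1.36 FPKM before crush, 0.52 and 0.42 on day 3, 2.26 and 2.08 on day 5 and 3.17 and 2.01 on day 7. It was lower at day 3 only, at -1.72 ± 0.29 (edgeR adjusted p = 0.00085), and rose again by 2.39 ± 0.29 from day 3 to day 7. Sema3c, which signals through neuropilins and plexin D1, was at 41.5 and 30.4 FPKM before crush, 31.4 and 28.3 on day 3, 33.1 and 32.3 on day 5 and 42.2 and 38.2 on day 7, with overlapping groups and no call. Sema3d had at most 0.08 FPKM in any Schwann cell library.

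Among the membrane-bound ligands, Sema4f rose most. This class 4 semaphorin has been studied in the contact of Schwann cells with axons. It stood at 4.18 and 4.63 FPKM before crush, 31.8 and 31.7 on day 3, 14.3 and 15.95 on day 5 and 9.05 and 11.3 on day 7. Both day 3 libraries were above all others, and the days after crush stepped down without reaching the uncrushed level. Its log2 fold change was 2.90 ± 0.14 at day 3 (edgeR adjusted p = 2.1e-07), 1.76 ± 0.14 at day 5 and 1.17 ± 0.14 at day 7, and day 7 lay below day 3, with a log2 difference of -1.74 ± 0.13 (edgeR adjusted p = 2.8e-05). Sema4g showed the mirror image, at 5.15 and 4.95 FPKM before crush, 0.55 and 0.63 on day 3, 0.86 and 0.98 on day 5 and 2.90 and 2.18 on day 7. It was lowest at day 3 and partly restored by day 7. The log2 fold change was -3.02 ± 0.20 at day 3 (edgeR adjusted p = 1.7e-06) and -1.01 ± 0.18 at day 7, with a rise of 2.01 ± 0.20 between them (edgeR adjusted p = 0.00017).

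The other class 4 genes changed less in Schwann cells. Sema4d, the ligand of plexin B1, ranged from 2.12 to 4.86 FPKM over the 8 libraries and was called only at day 3, 0.59 ± 0.19 higher. That call was lost with DESeq2 (0.56), without uncrushed replicate 1 (0.49) and without day 3 replicate 1 (0.47). Sema4b, between 0.97 and 1.90 FPKM, was called at day 5 only, 0.65 higher, and the call was lost in 14 of 17 alternatives, among them DESeq2 (0.60), the replicate number as a block (0.64), 2 other scalings (0.58 and 0.59), and leaving out any 1 of the uncrushed or day 5 libraries (0.49 to 0.81). Sema4c, a plexin B2 ligand, lay between 14.4 and 19.5 FPKM on all days with no call. Sema4a was at 0.04 to 0.26 FPKM.

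Sema5a had the largest fall in Schwann cells at day 3 and, leaving out Sema3f at the count floor, at day 5. It carries thrombospondin repeats outside the membrane, and plexin B3 is known as a receptor. In Schwann cells it stood at 57.7 and 64.04 FPKM before crush, 3.53 and 3.53 on day 3, 0.99 and 0.67 on day 5 and 5.31 and 3.67 on day 7. No library after crush came near the uncrushed ones, and the lowest values were at day 5. Relative to uncrushed its log2 change was -4.06 ± 0.21 at day 3 (edgeR adjusted p = 3.4e-07), -6.21 ± 0.24 at day 5 and -3.79 ± 0.21 at day 7. Its relative Sema5b had no count in uncrushed and day 3 Schwann cells and at most 0.15 FPKM later. RefSeq places another protein-coding record over Sema5a in the assembly GRCr8, and the same is true of Sema6a, so that reads of these neighbours could be shared if the counting ignored strand, which is not stated.

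Each of the 4 class 6 members was lower at day 3. Sema6d, a ligand of plexin A1, was the second most abundant member in uncrushed cells, at 153 and 160.1 FPKM before crush, 17.4 and 12.3 on day 3, 18.9 and 15.5 on day 5 and 23.5 and 20.9 on day 7. The 6 libraries after crush lay far below the uncrushed pair, close to each other. It fell, with a log2 fold change of -3.35 ± 0.18 at day 3 (edgeR adjusted p = 3.8e-07), -3.23 ± 0.18 at day 5 and -2.87 ± 0.17 at day 7. Sema6b stood at 3.06 and 2.79 FPKM before crush, 0.64 and 0.74 on day 3, 2.52 and 1.67 on day 5 and 2.30 and 2.37 on day 7. It was lower at day 3, at -1.99 ± 0.24 (edgeR adjusted p = 0.0001) and returned by 1.63 ± 0.24 from day 3 to day 7, with no call against uncrushed at days 5 and 7. Sema6a, which binds plexins A2 and A4, went from 11.01 and 12.4 FPKM to 6.79 and 7.43 at day 7, a log2 fold change of -0.82 ± 0.11 (edgeR adjusted p = 0.00032). Its day 3 value, -0.46 ± 0.11, was not called without day 3 replicate 2 (-0.43). Sema6c was low, 0.72 and 0.89 FPKM before crush and 0.42 to 0.53 after it. Its 3 calls, between -0.85 and -0.84, were lost with DESeq2 (day 3, -0.89) and without uncrushed replicate 2 (day 3, -0.68), and each also without at least 1 library of its own day, at day 3 replicate 2 (-0.73).

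Sema7a, which binds plexin C1 and beta 1 integrins, stood at 20.1 and 21.1 FPKM before crush, 15.7 and 16.6 on day 3, 24.4 and 20.2 on day 5 and 20.3 and 23.5 on day 7. Day 3 was the lowest pair, and no day was called. Plxnc1 went from 3.32 and 3.46 FPKM to 2.33 and 2.20 at day 3 and 6.40 and 6.34 at day 7. It was thus lower at day 3, at -0.53 ± 0.11 (edgeR adjusted p = 0.0035), and higher at day 7, by 0.87 ± 0.11 (edgeR adjusted p = 0.0002), the only member called in both directions over the days in these cells. Between day 3 and day 7 it rose by 1.40 ± 0.11.

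**Figure D2:**
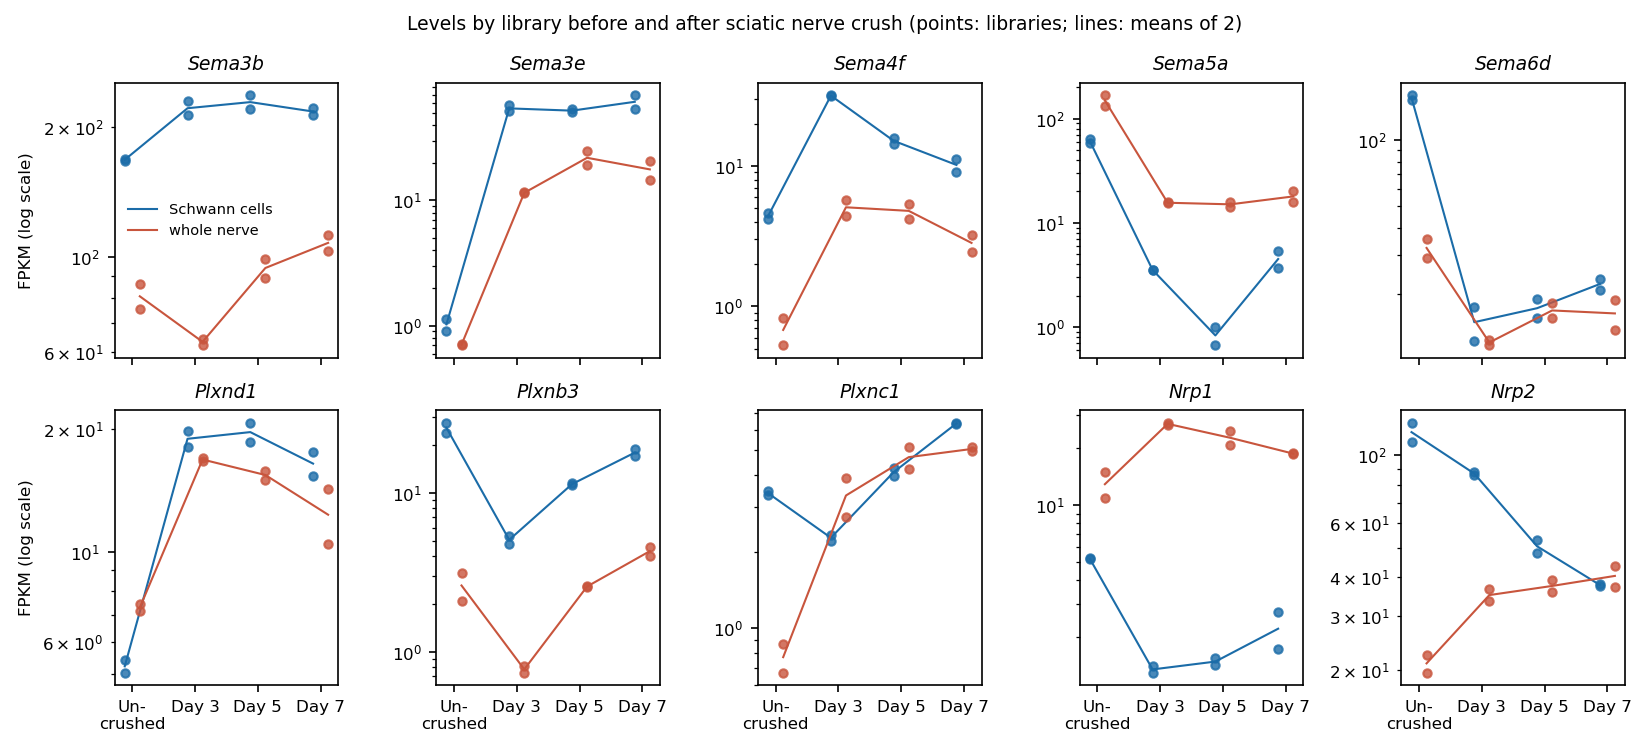
FPKM (log scale, each panel with its own range) of 10 members in every library before crush and at days 3, 5 and 7, with Schwann cells in blue and whole nerve in red, points for libraries and lines through the means of 2. Sema3e rises in both preparations and Sema5a falls in both, whereas Nrp2 falls from 128 and 110.5 FPKM in Schwann cells towards the whole nerve level and Nrp1 diverges.

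The plexins went in different directions. Plxna1, a receptor subunit used with neuropilins and for Sema6d, stood at 4.12 and 4.55 FPKM before crush, 11.6 and 11.2 on day 3, 13.6 and 13.5 on day 5 and 11.7 and 12.9 on day 7. All libraries after crush were higher and similar to each other. The rise was 1.45 ± 0.11 at day 3 (edgeR adjusted p = 3.5e-06), 1.62 ± 0.11 at day 5 and 1.46 ± 0.11 at day 7. Plxna4, which also pairs with neuropilins, stood at 4.14 and 3.43 FPKM before crush, 9.64 and 8.0 on day 3, 8.19 and 8.24 on day 5 and 5.23 and 7.22 on day 7. It was highest at day 3, 1.27 ± 0.16 on the log2 scale (edgeR adjusted p = 0.00011), and 0.68 ± 0.16 at day 7. Plxna3 was between 4.76 and 5.28 FPKM before crush and fell at day 3, at -0.70 ± 0.12 (edgeR adjusted p = 0.001), to 2.72 and 3.18 FPKM. Its day 5 call was lost without uncrushed replicate 1 (-0.37) and without day 5 replicate 1 (-0.41) or 2 (-0.42). Plxna2 was near absent in Schwann cells, at 0.02 to 0.19 FPKM.

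Plxnb3 was the most abundant plexin in uncrushed Schwann cells, at 27.5 and 23.7 FPKM before crush, 5.36 and 4.75 on day 3, 11.5 and 11.1 on day 5 and 18.8 and 16.98 on day 7. Both day 3 libraries lay below all others, and the level climbed back with the days. The log2 fold change was -2.29 ± 0.11 at day 3 (edgeR adjusted p = 2.6e-07), -1.20 ± 0.11 at day 5 and -0.55 ± 0.11 at day 7, and day 7 was above day 3 by 1.74 ± 0.11 (edgeR adjusted p = 1.4e-05). Plxnb1, the Sema4d receptor, stood at 7.24 and 6.21 FPKM before crush, 3.28 and 3.40 on day 3, 3.04 and 2.85 on day 5 and 3.37 and 3.22 on day 7. Its libraries after crush clustered below the uncrushed pair on every day. It fell, with a log2 fold change of -0.95 ± 0.11 at day 3 (edgeR adjusted p = 8.1e-05), -1.21 ± 0.11 at day 5 and -1.07 ± 0.11 at day 7. Plxnb2, used by Sema4c, was at 13.5 and 10.9 FPKM before crush, 21.6 and 20.6 on day 3, 19.7 and 20.9 on day 5 and 17.6 and 17.5 on day 7. Unlike the other class B genes it rose, by 0.84 ± 0.11 at day 3 (edgeR adjusted p = 0.00012), 0.71 ± 0.11 at day 5 and 0.48 ± 0.11 at day 7.

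Both neuropilins fell in Schwann cells. Nrp2, the third most abundant member there before crush, stood at 128 and 110.5 FPKM before crush, 86.2 and 88.2 on day 3, 53.02 and 48.02 on day 5 and 37.4 and 38.2 on day 7. Each day lay below the one before, without overlap between groups. On the log2 scale its change was -0.37 ± 0.10 at day 3, -1.26 ± 0.10 at day 5 (edgeR adjusted p = 6.5e-06) and -1.69 ± 0.10 at day 7 (edgeR adjusted p = 1.8e-06). The day 3 call was lost without day 3 replicate 1 (-0.37) and without replicate 2 (-0.40), while the difference between day 7 and day 3, -1.32 ± 0.10, stayed called in each such fit. Nrp1 was at 5.23 and 5.15 FPKM before crush, 1.29 and 1.39 on day 3, 1.41 and 1.54 on day 5 and 2.70 and 1.71 on day 7. It was lowest at days 3 and 5. The change was -1.90 ± 0.20 at day 3 (edgeR adjusted p = 3.9e-05), -1.85 ± 0.20 at day 5 and -1.26 ± 0.20 at day 7.

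Day 7 was also compared with day 3 directly. In Schwann cells 6 members were higher at day 7 and 7 lower, beside 10.2% and 10.7% of all genes tested. Scaling to library totals in place of TMM, edgeR's trimmed mean of M values, turned this split to 9 higher and 4 lower, beside 12.9% and 7.77% of all genes, and upper quartile scaling to 8 and 5, beside 11.7% and 9.18%. The 7 lower were 3 without day 3 replicate 1 and 4 without either day 7 library, and without the filter on low counts the 6 higher were 10. The 6 were Plxna3, Plxnb3, Plxnc1, Sema3g, Sema4g and Sema6b. The 7 were Nrp2, Plxna4, Plxnb2, Sema3a, Sema4d, Sema4f and Sema6a. This comparison uses the same day 3 libraries as that of day 3 with uncrushed, so the calls of the 2 comparisons are not independent. Several of the smaller changes were lost when single libraries were left out, as Plxna3 (0.43) was not called without any 1 day 3 or day 7 library (0.33 to 0.56), nor Plxnb2 (-0.36, -0.37 to -0.33) and Sema6a (-0.37, -0.43 to -0.30), nor Plxna4 (-0.60) without day 3 replicate 1 (-0.46) or day 7 replicate 1 (-0.38), nor Sema4d (-0.90) without day 3 replicate 1 (-0.79) or day 7 replicate 2 (-0.73). Plxnb2 and Sema6a were not called with upper quartile scaling (-0.31 and -0.32) or library totals (-0.26 and -0.28) either, nor Sema6a with the replicate number as a block (-0.37), Plxna4 with library totals (-0.50) and Plxna3 with DESeq2 (0.41). In whole nerve 11 members were higher at day 7 than at day 3 and 6 lower, beside 9.85% and 11.4% of all genes. The clearest of these were Sema4g (2.65 ± 0.39, edgeR adjusted p = 0.00095) and Plxnb3 (2.46 ± 0.20, edgeR adjusted p = 3e-05). The count of 17 was 7 without day 3 replicate 1, 9 without day 3 replicate 2, and 10 without day 7 replicate 1 and also without replicate 2.

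In whole nerve 30 members were tested, all but Sema5b. At day 3, 11 were higher and 9 lower than in uncrushed nerve, beside 23.1% and 22.5% of all genes tested. Day 5 gave 13 higher and 8 lower, beside 18.9% and 19.5%, and day 7 gave 11 higher and 7 lower, beside 15.4% and 15.9%. With this scaling the members called were a larger share than that of all genes in both directions. The choice of scaling matters here. FPKM ratios against uncrushed nerve were higher than the fitted changes by a median of 0.41 over genes on each day, and library totals in place of TMM moved the median gene by 0.41 at day 3, 0.40 at day 5 and 0.41 at day 7. With library totals, the calls over all genes at day 3 went from 50.7% to 79.2% higher. The members' splits then became 12 and 8 (day 3), 14 and 5 (day 5) and 17 and 6 (day 7). Of all genes tested, 44.3% were then higher and 11.6% lower on day 3, 43.6% and 10.1% on day 5 and 43.1% and 7.16% on day 7. The members' share called higher was then below that of all genes on day 3 (40.0%) and above it on day 5 (46.7%) and day 7 (56.7%). Changes in whole nerve are therefore relative to the typical gene, and a member's FPKM can rise while its fitted change is near 0.

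Over the same days the macrophage marker sum in whole nerve went from 151 and 171 FPKM to 646 and 675 at day 3 and was 395 and 400 at day 7, and the Schwann cell marker sum from 18136 and 21634 to 2419 and 2541 at day 3. The part of these changes in the members' values was not tested.

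Sema3e also rose in whole nerve, at 0.71 and 0.70 FPKM before crush, 11.6 and 11.4 on day 3, 19.1 and 24.7 on day 5 and 14.6 and 20.7 on day 7. No library after crush overlapped the uncrushed pair. The log2 fold change was 3.59 ± 0.21 at day 3 (edgeR adjusted p = 3.7e-07), 4.54 ± 0.21 at day 5 and 4.22 ± 0.21 at day 7. Plxnd1 went from 7.13 and 7.45 FPKM to between 10.4 and 16.97 after crush. It rose by 0.79 ± 0.12 at day 3 (edgeR adjusted p = 0.00042) and 0.66 ± 0.12 at day 5. The day 7 value, 0.36 ± 0.12, was lost as a call in most fits that left out a library, and was 0.16 without day 7 replicate 2.

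Sema4f in whole nerve stood at 0.83 and 0.53 FPKM before crush, 5.76 and 4.41 on day 3, 4.22 and 5.37 on day 5 and 3.22 and 2.45 on day 7. It was low before crush and higher in every library after it, by 2.46 ± 0.27 at day 3 (edgeR adjusted p = 3.5e-05), 2.38 ± 0.27 at day 5 and 1.62 ± 0.27 at day 7. Sema4d rose too, at 0.57 and 0.54 FPKM before crush, 2.22 and 2.38 on day 3, 1.82 and 2.27 on day 5 and 1.53 and 1.69 on day 7, without overlap. Its change was 1.64 ± 0.21 at day 3 (edgeR adjusted p = 0.00014), 1.47 ± 0.22 at day 5 and 1.13 ± 0.22 at day 7. Sema4a, at 0.88 and 0.93 FPKM before crush, 4.11 and 3.79 on day 3, 2.32 and 2.72 on day 5 and 3.34 and 3.42 on day 7, rose by 1.74 ± 0.19 at day 3 (edgeR adjusted p = 4.4e-05) and 1.51 ± 0.20 at day 7, while it was near 0 in the purified cells. Sema7a, at 4.37 and 4.01 FPKM before crush, 9.55 and 9.51 on day 3, 10.02 and 10.9 on day 5 and 8.95 and 9.45 on day 7, was 0.77 ± 0.12, 0.91 ± 0.12 and 0.72 ± 0.12 higher at days 3, 5 and 7 (edgeR adjusted p = 0.00018 at day 5), and its receptor gene Plxnc1, at 0.87 and 0.67 FPKM before crush, 2.74 and 3.90 on day 3, 4.23 and 5.16 on day 5 and 5.13 and 4.98 on day 7, was 1.68 ± 0.20, 2.19 ± 0.20 and 2.29 ± 0.20 higher (edgeR adjusted p = 1.6e-05 at day 5). For both genes every library after crush lay above the uncrushed pair.

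Falls in whole nerve at days 3 and 5 were led by Sema4g, at 7.28 and 9.0 FPKM before crush, 0.25 and 0.41 on day 3, 0.23 and 0.61 on day 5 and 1.62 and 2.51 on day 7. It was almost lost at days 3 and 5. Relative to uncrushed its log2 change was -5.03 ± 0.38 at day 3 (edgeR adjusted p = 2.5e-06), -4.62 ± 0.37 at day 5 (-5.52 without day 5 replicate 2) and -2.38 ± 0.32 at day 7. Sema5a, the most abundant member of uncrushed nerve, was at 132 and 167 FPKM before crush, 15.4 and 15.8 on day 3, 14.3 and 15.8 on day 5 and 15.8 and 19.98 on day 7. All libraries after crush lay far below the uncrushed pair. The change was -3.67 ± 0.14 at day 3 (edgeR adjusted p = 2.8e-08), -3.72 ± 0.14 at day 5 and -3.47 ± 0.14 at day 7. Sema6c, at 2.24 and 2.79 FPKM before crush, 0.58 and 0.38 on day 3, 0.49 and 0.38 on day 5 and 0.27 and 0.52 on day 7, fell throughout, its log2 change being -2.80 ± 0.30, -2.87 ± 0.31 and -3.02 ± 0.32 (edgeR adjusted p = 3.4e-05 at day 3), with no overlap. Sema6d, at 29.1 and 35.6 FPKM before crush, 11.7 and 12.3 on day 3, 15.5 and 18.1 on day 5 and 13.7 and 18.8 on day 7, fell, with a log2 fold change of -1.84 ± 0.14 at day 3 (edgeR adjusted p = 3.4e-06) and -1.38 ± 0.14 at day 7. Plxnb1, at 2.27 and 2.95 FPKM before crush, 1.22 and 1.10 on day 3, 0.90 and 1.07 on day 5 and 1.31 and 1.73 on day 7, fell, with a log2 fold change of -1.58 ± 0.19 at day 3 (edgeR adjusted p = 7.8e-05), -1.80 ± 0.19 at day 5 and -1.18 ± 0.19 at day 7. Plxnb3, at 2.09 and 3.13 FPKM before crush, 0.81 and 0.74 on day 3, 2.60 and 2.54 on day 5 and 4.01 and 4.57 on day 7, fell at day 3 only, at -2.14 ± 0.21 (edgeR adjusted p = 1.5e-05), and was higher at day 7 than at day 3 by 2.46 ± 0.20.

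The abundant class 3 genes of whole nerve, Sema3b and Sema3c, were lower at day 3. Sema3b was at 75.5 and 86.1 FPKM before crush, 62.2 and 64.4 on day 3, 89.2 and 98.9 on day 5 and 103 and 112 on day 7. The day 3 change was -0.76 ± 0.10 (edgeR adjusted p = 0.00011), and days 5 and 7 were not called. Sema3c was at 56.9 and 54.2 FPKM before crush, 40.7 and 44.1 on day 3, 62.3 and 59.2 on day 5 and 48.5 and 54.8 on day 7. Its fitted change was -0.80 ± 0.09 at day 3 (edgeR adjusted p = 3.6e-05), -0.28 ± 0.09 at day 5 and -0.51 ± 0.09 at day 7. Scaled to library totals the day 5 value turned to 0.12 and the day 7 value was -0.10, neither called, and the day 5 call was also lost without any 1 of the uncrushed, day 3 or day 5 libraries, with values between -0.31 and -0.24. Sema3d, between 6.05 and 9.48 FPKM over the 8 libraries, was called lower at day 3, -0.58, and day 5, -0.50. Both calls were lost with library totals, at -0.17 and -0.09, and that at day 5 without uncrushed replicate 2 (-0.42) and without day 5 replicate 2 (-0.43). Sema3a was at 1.65 and 1.52 FPKM before crush, 1.95 and 2.48 on day 3, 1.11 and 2.11 on day 5 and 1.09 and 1.26 on day 7, and fell, with a log2 fold change of -1.32 ± 0.21 at day 7 (edgeR adjusted p = 0.00084). Its day 5 value, -0.74 ± 0.20, was lost with library totals (-0.34), without uncrushed replicate 1 (-0.46) and without day 5 replicate 1 (-0.56). Sema3g was at 0.48 and 0.47 FPKM before crush, 0.42 and 0.37 on day 3, 1.28 and 0.87 on day 5 and 1.19 and 1.54 on day 7. It was higher at day 7 by 1.11 ± 0.32, a call lost with DESeq2 (1.12) and without uncrushed replicate 1 (1.14), uncrushed replicate 2 (1.09) or day 7 replicate 2 (0.93). Sema3f, from 1.11 to 2.28 FPKM, was called on no day.

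Both neuropilins rose in whole nerve, Nrp1 at days 3 and 5 and Nrp2 on all 3 days. Nrp1 was at 14.9 and 10.9 FPKM before crush, 26.7 and 27.3 on day 3, 24.7 and 20.9 on day 5 and 18.9 and 18.7 on day 7. The 6 libraries after crush lay above the uncrushed pair. The fitted change was 0.65 ± 0.14 at day 3 (edgeR adjusted p = 0.0029) and 0.41 ± 0.14 at day 5. The day 5 call was lost without uncrushed replicate 2 (0.21), without day 5 replicate 1 (0.29), and without either day 3 library (0.42). It was also lost with uncrushed and day 5 libraries fitted alone (0.41). Nrp2 was at 19.6 and 22.4 FPKM before crush, 33.5 and 36.5 on day 3, 35.8 and 39.2 on day 5 and 43.7 and 37.2 on day 7, also without overlap. It rose by 0.48 ± 0.11 at day 5 (edgeR adjusted p = 0.0061), a call lost without day 5 replicate 2 (0.41), and by 0.57 ± 0.11 at day 7 (edgeR adjusted p = 0.003). The day 3 value, 0.34 ± 0.11, was lost without uncrushed replicate 1 (0.27), day 3 replicate 1 (0.40) or day 3 replicate 2 (0.30).

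Of the plexins in whole nerve, Plxnb2 was at 7.97 and 8.91 FPKM before crush, 23.6 and 26.2 on day 3, 19.8 and 20.6 on day 5 and 18.9 and 19.3 on day 7. It was the most abundant plexin there, and every library after crush lay above the uncrushed pair. The log2 fold change was 1.15 ± 0.09 at day 3 (edgeR adjusted p = 4.1e-06), 0.85 ± 0.09 at day 5 and 0.77 ± 0.09 at day 7. Plxna4 was at 1.0 and 1.03 FPKM before crush, 1.45 and 1.24 on day 3, 2.79 and 2.62 on day 5 and 2.08 and 3.10 on day 7, and rose by 1.01 ± 0.18 at day 5 (edgeR adjusted p = 0.0015) and 0.95 ± 0.18 at day 7, with no call at day 3. Plxna1 went from 4.64 and 4.80 FPKM to between 7.04 and 8.25. Its fitted change was 0.40 ± 0.09 at day 5 (edgeR adjusted p = 0.0045), and the day 3 call, 0.30 ± 0.09, was lost without uncrushed replicate 1 (0.28) or without day 3 replicate 1 (0.29) or 2 (0.34). Plxna2 (1.40 to 2.05 FPKM) and Plxna3 (1.14 to 1.56) were called on no day, and neither were Sema4b (0.76 to 1.24), Sema4c (from 6.0 to 8.44) and Sema6b (1.45 to 2.74). Sema6a, between 5.71 and 9.70 FPKM, was called higher at day 5, 0.33, and the call was lost without either uncrushed library (0.33 and 0.34) and without either day 5 library (0.36 and 0.31). Sema5b stayed at or below 0.30 FPKM.

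The purified cells were next compared with whole nerve in a fit of all 16 libraries. Before crush 15 members were higher in Schwann cells and 11 lower, beside 29.1% and 35.3% of all genes tested. With library totals, which moved the median gene by 0.31 here, the split was 16 and 10, and that of all genes turned to 38.7% higher and 27.0% lower. At day 3 there were 13 and 9 (24.5% and 32.8% of all genes), at day 5 14 and 8 (23.2% and 28.4%), and at day 7 14 and 8 (22.4% and 28.7%). The members' share called higher was above that of all genes at each time. Those lower include Sema3d and Sema4a at each of the 4 times, which failed the filter on low counts within Schwann cells and passed it here only through whole nerve, so that their direction was set by the filter. Over the 28 members that passed in both preparations, 9, 7, 6 and 6 were lower. Plxnb3 was the member with the largest excess in uncrushed Schwann cells, 3.00 ± 0.16 on the log2 scale (edgeR adjusted p = 1.1e-09), followed by Sema4f (2.35 ± 0.24), Nrp2 (2.22 ± 0.11), Sema4d (2.17 ± 0.23), Sema6d (1.99 ± 0.17) and Sema7a (1.99 ± 0.13). At day 3 Plxna4 led, at 2.76 ± 0.18 (edgeR adjusted p = 1.5e-08), with Plxnb3 at 2.74 ± 0.17 and Sema4f at 2.69 ± 0.18. Sema3e was not called before crush and was 2.29 ± 0.17 higher in Schwann cells at day 3 (edgeR adjusted p = 3.1e-08).

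Other members were lower in Schwann cells than in the nerve, and a few of them, Sema3d, Plxna2 and Sema4a, were near 0 there. For Sema3d and Sema4a the values are a description. Sema3d was at 7.22 and 7.98 FPKM in uncrushed nerve and 0.05 and 0.08 in uncrushed Schwann cells, a fitted log2 difference of -7.18 ± 0.27. At days 5 and 7 it had 1 and 0 counts in the Schwann cell libraries and was at least 204-fold and at least 216-fold lower. Plxna2, which passed in both preparations, was lower, at -3.62 ± 0.41 before crush and -4.53 ± 0.42 at day 3 (edgeR adjusted p = 4.1e-07). The fitted values of Sema4a were -3.23 ± 0.38 and -5.57 ± 0.34. Without day 3 replicate 2 of Schwann cells the day 3 value was -6.53 for Plxna2 and -6.39 for Sema4a, and without replicate 1 it was -3.94 for Plxna2. Nrp1 was lower in Schwann cells at every time, at -1.63 ± 0.17 before crush and -4.28 ± 0.19 at day 3 (edgeR adjusted p = 3.4e-10). Sema3a was lower, at -4.82 ± 0.33 before crush (edgeR adjusted p = 1.5e-08) and not called at day 3. Sema3c was lower as well at each of the 4 times, though its day 7 call (-0.41) was lost without day 7 replicate 2 of either preparation (-0.34 and -0.33). The same held at all 4 times for Sema5a, at -1.60 ± 0.18 before crush and -4.22 ± 0.22 at day 5.

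**Figure D3:**
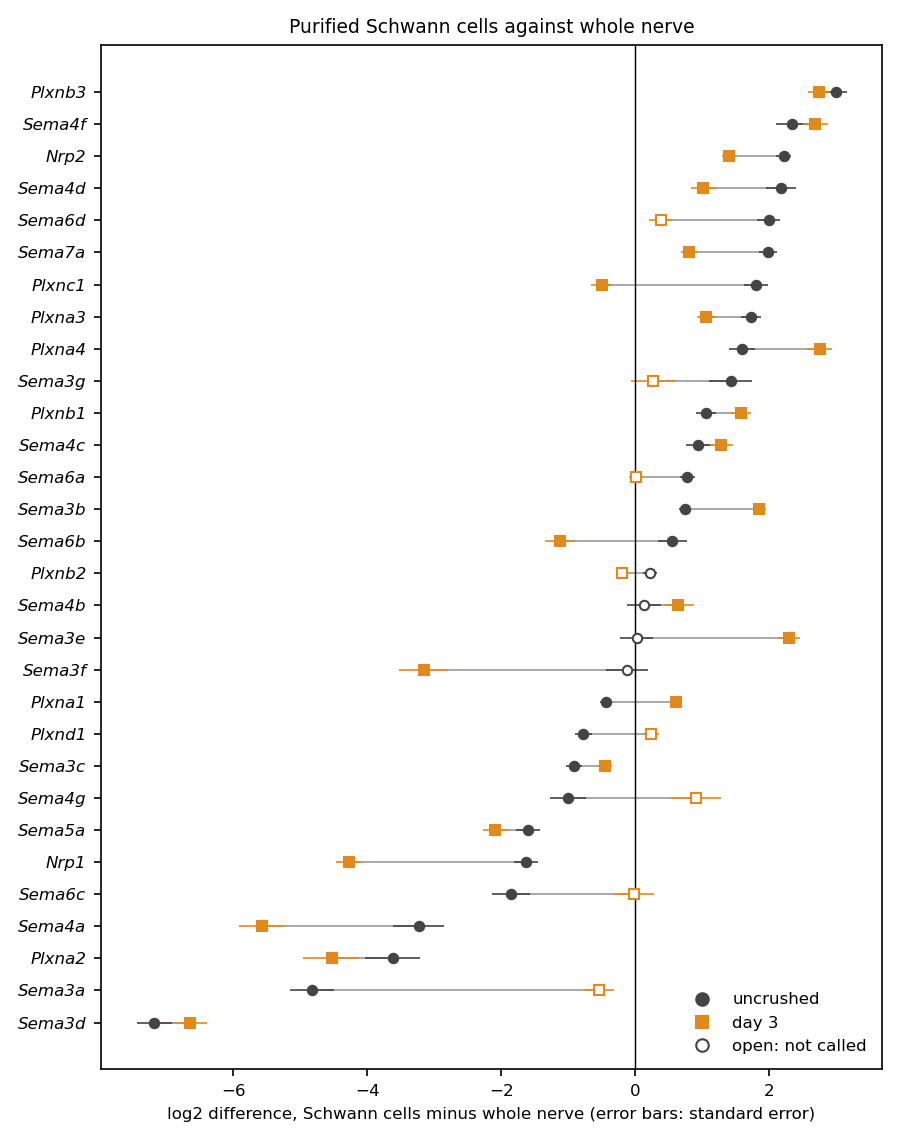
Log2 difference between Schwann cells and whole nerve (x axis, positive where Schwann cells are higher) for 30 members in order of the uncrushed value, before crush (dark circles) and at day 3 (orange squares), with bars for the standard error and open symbols for values not called. Sema3a moves from -4.82 before crush to a value not called at day 3, Sema3e from a value not called to 2.29, and Nrp1 from -1.63 to -4.28; Sema3d and Sema4a passed the filter on low counts only through whole nerve.

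Whether injury acted differently on the members in Schwann cells and in whole nerve was tested as a difference of the log2 fold changes against uncrushed. It was called for 20 of 30 members at day 3, 18 at day 5 and 18 at day 7, beside 26.0%, 27.5% and 26.0% of all genes tested. The change was the higher one in Schwann cells for 8 members and the lower one for 12 on day 3, beside 12.3% and 13.7% of all genes. On day 5 these were 7 and 11, beside 12.6% and 14.9%, and on day 7 again 7 and 11, beside 11.6% and 14.4%. The lower ones include Sema4a on day 3 and Sema3d on days 5 and 7, which had only a few counts in Schwann cells, and without them they were 11, 10 and 10. Library totals moved the median gene by -0.36, -0.26 and -0.26. They turned the members' splits to 8 and 14, 6 and 14, and 5 and 13, and the shares of all genes to 6.41% and 26.5% (day 3), 7.5% and 22.7% (day 5), and 6.82% and 22.5% (day 7). The largest positive difference was that of Sema3a, 4.29 ± 0.41 at day 3 (edgeR adjusted p = 3.2e-06), and the largest negative one outside the count floor that of Sema3f at day 7, -4.54 ± 0.55 (edgeR adjusted p = 3.1e-05). Both rest on few reads in Schwann cells, 9 and 6 counts of Sema3a before crush and 5 and 3 of Sema3f at day 7. Nrp2, lower in Schwann cells and higher in whole nerve, had a difference of -2.38 ± 0.15 at day 7 (edgeR adjusted p = 1.4e-07).

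Some members were called in opposite directions in the preparations. At day 3 Sema3b was higher in Schwann cells and lower in whole nerve, while Nrp1, Nrp2 and Plxnc1 were lower in Schwann cells and higher in whole nerve. At day 5 Sema3a was of the first kind and Nrp1, Nrp2 and Sema6a of the second, and at day 7 Sema3a and Nrp2. The calls of Nrp2 at day 3 in both preparations, and of Nrp1, Nrp2, Sema3a and Sema6a in whole nerve at day 5, are those that were lost without single libraries, as given above.

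**Figure D4:**
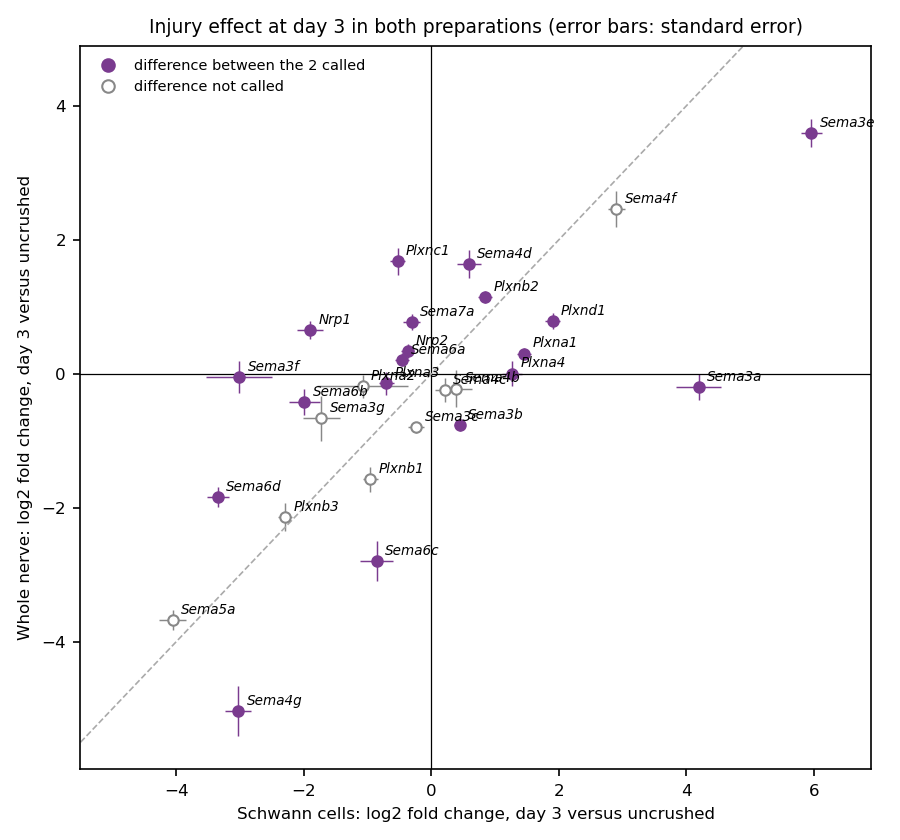
Log2 fold change at day 3 against uncrushed in Schwann cells (x axis) and in whole nerve (y axis) for the 28 members tested in both, with bars for the standard error, a dashed line of equal change, and filled points where the difference was called in the 16-library fit. Sema4f and Sema5a lie near the line, Sema3a lies far to the right of it with little change in whole nerve, and Nrp1 and Plxnc1 lie at the upper left.

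A list of 56 partners of the family, among them coreceptors, integrins, cytoplasmic mediators and kinases, was counted as a whole. In Schwann cells 42 of them were tested. At day 3, 15 were higher and 7 lower, at day 5 17 and 9, and at day 7 16 and 11, beside the shares of all genes given above for these cells. In whole nerve 54 were tested, with 16 higher and 13 lower (day 3), 13 and 6 (day 5) and 12 and 10 (day 7), again beside the shares given above for whole nerve. Whether the partners differ from all genes was not tested. The partner with the largest rise at day 3 in Schwann cells was Crmp1, a collapsin response mediator that carries the Sema3a signal, from a mean of 0.13 FPKM to 4.24, a log2 fold change of 5.08 (edgeR adjusted p = 2.5e-07). It was followed by Met, the receptor of hepatocyte growth factor and a partner of class B plexins, from 3.13 to 53.6 FPKM (4.27), Pak1, a kinase downstream of Rac, from 2.08 to 8.93 (2.14), and the adhesion molecule Nrcam, from 10.2 to 42.8 (1.97). The largest falls were those of Dpysl5, another collapsin response mediator, from 6.41 to 0.20 FPKM (-4.86, edgeR adjusted p = 2.8e-05), of the integrin subunit Itga1 from 17.2 to 4.46 (-1.89), of Micall1 from 36.6 to 12.2 (-1.53), and of Vegfa, a growth factor that binds neuropilins, from 14.8 to 5.26 (-1.36).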

How the data were processed

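Alignment by the authors was to the rat build Rnor_6.0, with STAR. Expected counts of 31038 genes were estimated by the authors with RSEM and deposited without normalization. FPKM values were computed by the authors in the same step and scaled to gene length and library. The cDNA was amplified before library synthesis, without molecular identifiers, and whether counting used strand is not given in the sources used here. In GRCr8, 16 of the 31 members overlap another record, 2 of them (Sema5a and Sema6a) a protein-coding one.

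Groups were taken from the labels. Expected counts were rounded and tested with edgeR 4.0.16 in R 4.3.3 (quasi-likelihood test, TMM, filterByExpr, Benjamini-Hochberg adjustment over all genes tested). Each Schwann cell comparison used the 8 Schwann cell libraries (14961 genes), each whole nerve comparison the 8 whole nerve libraries (15831), and comparisons between preparations all 16 (16829). The standard error is the log2 fold change divided by the root of its F statistic. Depth was 10555067 to 27562637 counts per library. A group with at most 3 counts in each library was treated as at the floor, and its fold given as a bound that covers counting error only. Replicates differed by more than sampling noise in every group, with chi-square per degree of freedom between 8.56 and 30.1.

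Members, markers and partner lists were chosen with earlier results of these data known. Values in every library were printed for members called with an absolute log2 fold change of at least 1 against uncrushed on any day, or with a mean of at least 20 FPKM in any group of that preparation, and the 4 partners with the largest rise and the 4 with the largest fall were named. Alternatives were DESeq2 1.42.0 and other scalings, filters, blocks and sets of libraries. Library totals in place of TMM were added after seeing the data. The fitting code was run on simulated counts with known changes, which is a check of the code and not of the results given here. Python 3.11.15, numpy 2.4.6, pandas 2.3.3 and matplotlib 3.10.9 were used for tables and plots. Some genes of the marker lists are not reported here. A count matrix that repeats these counts and a table of gene modules were not used.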

Additional observations from a re-analysis of the deposited data

Results flagged for a closer look

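The difference between the log2 fold change in Schwann cells and that in whole nerve was called in 56 cases over the 3 days (edgeR, 16 libraries), and each is given here as Schwann cells minus whole nerve. Among members whose change was the higher one in Schwann cells, Sema3a differed by 4.29 at day 3, 3.68 at day 5 and 3.51 at day 7. Sema3e differed by 2.27, 1.16 and 1.71 on these days, Sema4g by 1.90, 2.02 and 1.25, and Sema6c by 1.84, 1.90 and 2.07. For the plexins Plxna1 and Plxnd1 the differences were 1.05, 1.09 and 1.12, and 1.01, 1.09 and 1.12. Sema3b differed by 1.10 at day 3 and 0.48 at day 5, Plxna4 by 1.17 at day 3, and Sema3c by 0.50 at day 7. Sema4g at day 5 was 2.92 without day 5 replicate 2 of whole nerve. The call was lost for Sema3b at day 5 with library totals (0.22) and without uncrushed replicate 2 (0.39) or day 5 replicate 1 (0.41) of whole nerve, and for Sema3c with library totals (0.25) and without 1 of several libraries (0.32 to 0.52). For Sema4g at day 7 it was lost with library totals (0.99) and without uncrushed replicate 1 (1.26), uncrushed replicate 2 (1.25) or day 7 replicate 1 (1.02) of Schwann cells, and without uncrushed replicate 2 (1.07) or day 7 replicate 1 (0.97) of whole nerve.

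The change was the lower one in Schwann cells for both neuropilins, with -2.65, -2.38 and -1.50 for Nrp1 and -0.81, -1.87 and -2.38 for Nrp2. For Plxnc1 the values were -2.31, -2.06 and -1.53, for Sema6d -1.61, -1.98 and -1.60, for Sema4d -1.15, -1.94 and -1.55, for Sema7a -1.18, -0.95 and -0.79, and for Sema6a -0.77, -1.01 and -0.80. Sema3f gave -3.04 at day 3 (-4.15 without day 3 replicate 2 of Schwann cells), -4.54 at day 7, and at day 5, where Schwann cells were at the count floor, a fitted -5.71 that is no bound, since the fall in those cells was at least 27.2-fold. Sema3d gave fitted values of -2.73 at day 5 and -2.90 at day 7, which are no bounds either. Its Schwann cell libraries had 1 and 0 counts on both days against 3 and 5 before crush, at least 1.82-fold and 1.53-fold lower. Like Sema4a, Sema3d failed the filter on low counts within Schwann cells and was tested only because whole nerve passed it. Neither value was called with DESeq2 (-3.07 and -3.20), without uncrushed replicate 2 of Schwann cells (-2.23 and -2.40), or without either Schwann cell library of the day (-4.88 and -1.95, and -5.23 and -2.25), and the calls were lost in 7 and 4 of 22 alternatives in all. Sema5a differed at day 5 only (-2.62), and Sema4a (-2.34), Sema6b (-1.67) and Plxna3 (-0.66) at day 3 only. For Sema4a the Schwann cell libraries held 5 and 4 counts before crush and 2 and 8 at day 3, so that its value rests on the rise in whole nerve. It was -3.16 without day 3 replicate 2 of Schwann cells and not called without uncrushed replicate 1 (-2.27). The value of Plxna3 was not called without uncrushed replicate 1 (-0.60) or day 3 replicate 1 (-0.56) of Schwann cells, or uncrushed replicate 2 (-0.56) or day 3 replicate 1 (-0.56) of whole nerve, or with no filter on low counts (-0.64). Plxnb3 differed by -0.91 at day 5 and -0.997 at day 7. Plxnb2 differed by -0.41 at day 3 and -0.40 at day 7, and both calls were lost with the replicate block, with upper quartile scaling, with no filter on low counts and without any 1 of the libraries of the groups compared except, at both days, uncrushed replicate 2 of either preparation, the lowest sizes being -0.26 and -0.25 without uncrushed replicate 1 of Schwann cells.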

How the results depend on the processing

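Over 299 called values of members, 6029 alternatives were run. Of these, 5764 kept the direction and the call, 264 kept the direction and lost the call, and 1 reversed, the whole nerve value of Sema3c at day 5, which was 0.12 with library totals. Fits without 1 library were run for all comparisons of the set, also those that do not use the library left out. Such fits could move a value only through the filter, the scaling and the shared spread, so the number kept overstates how firm the calls are. At least 1 change was seen in 59 of the 299 values. The number of members called for day 7 against day 3 in whole nerve was 17 and ranged from 7 to 17 when single libraries were left out. No other count of members called, both directions together, moved by more than 1.5 times. In 1 direction, library totals moved those lower from 7 to 4 in Schwann cells at day 7 against day 3, those lower from 8 to 5 in whole nerve at day 5 and those higher from 11 to 17 at day 7. At least 10 counts in every library, which tests fewer members, moved those called lower between the preparations from 11, 9, 8 and 8 (uncrushed and days 3, 5 and 7) to 7, 5, 3 and 3. DESeq2 called 21, 18 and 18 members on the 3 days in Schwann cells and 20, 21 and 17 in whole nerve. The labels do not tie replicate numbers to a shared source, and the deviations of same-numbered libraries from their group means correlated between -0.13 and 0.18. They were above 0.1 among uncrushed, day 5 and day 7 whole nerve (0.16, 0.14 and 0.18) and between the preparations at day 7 (0.14), but not between day 3 whole nerve and the others (-0.0094 to 0.056), so that the numbers were not taken as pairs. With the replicate block, 23, 19, 20 and 13 members were called in Schwann cells (days 3, 5 and 7, and day 7 against day 3), 20, 21, 18 and 17 in whole nerve, 26, 23, 22 and 22 between preparations and 20, 18 and 17 for the difference of the injury effect. The block ended 4 calls and no other, those of Sema4b (day 5) and Sema6a (day 7 against day 3) in Schwann cells, and of Plxnb2 for that difference on days 3 and 7. With library totals, the share of calls over all genes that were higher moved from 49.2% to 81.2% at day 5 and from 49.3% to 85.8% at day 7 in whole nerve. Because at least 10 counts in every library removes low members from the fit, that alternative was not run for 34 of the called values. Expression at a few counts per library, as for Sema3d, Sema3f and Sema5b in Schwann cells, limits these members to bounds or wide intervals.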
